A study of Rattus norvegicus with 3 samples.

Results

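The genes described here are 9 genes of antigen presentation by the major histocompatibility complex (MHC) class II: RT1-Da, RT1-Db1, RT1-Ba, RT1-Bb, RT1-DMa, RT1-DMb, Cd74, Ciita and Ctss. They were found on the array through the RefSeq accession of each probe, which gave 11 of the 30367 probes. The set was chosen with the log2 ratios of these same arrays already known, so the ratios of its members are a description, carry no test and support nothing. A filter on dim probes asked for a signal well above background in the same colour (or in both) throughout the 3 arrays. It kept 7 of the 9 genes among 14179 genes tested. RT1-Ba and Ciita did not pass.

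Male Sprague-Dawley rats received γ-aminobutyric acid (GABA) at 200 ppm in the drinking water for 3 weeks (G200), and RNA of their kidneys was compared with that of control rats (0 ppm) on 3 Agilent arrays with 2 colours. The rats were 5 weeks old when bought and had 1 week of acclimation before treatment, and the labels give 3 per group (8 in the methods) and describe the tissue as a non-tumor part of the kidney. Sprague-Dawley is an outbred stock. Control RNA carried Cy3 (green) and G200 RNA carried Cy5 (red) on every array, so an effect of the dye and an effect of GABA cannot be told apart. Over 1022 probes spotted several times, the green channels were compared between pairs of arrays. The median squared difference between array means was set against the median variance of that difference, estimated from spots of the same probe. This ratio was 0.56 to 0.74 in green and, over 1032 such probes, 3.14 to 8.0 in red. As both parts are medians, 1 is not the value that a single RNA would give. With its low ratio beside that of red, the control was counted as 1 sample. All 3 arrays lay on 1 slide and were read in 1 scan.

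MHC class II molecules are pairs of an alpha and a beta chain that display peptides from taken-up proteins to CD4+ T cells. The invariant chain fills the groove of a new molecule, proteases of the endosome trim it, and the DM chaperone exchanges the last fragment for a peptide. In kidney these genes are known mainly from dendritic cells, macrophages and B cells, and tubule cells can express them under interferon-gamma. The transactivator Ciita acts through factors bound at a promoter element with an X box and a Y box.

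That promoter element is shown because it is the sequence feature for which class II genes are known, so finding it in them is no test. The choice of the members on their ratios did not use it. RefSeq promoters of GRCr8, from 250 bases before to 50 bases after the annotated start, were at hand for 7 of the 9 genes. Ciita and RT1-DMb had no entry. They were searched on both strands for the 14-letter X box consensus with up to 3 mismatches, followed on the same strand after 10 to 35 bases by ATTGG, the Y box (an inverted CCAAT). The pair was in 4 of the 7 promoters, against 536 of all 33469 promoters of the table (1.6%), while ATTGG alone on either strand was in 12549 (37.5%). The stretches are the 180 bases just before the start, in the direction of the gene, and capitals mark the X box and then the Y box. They lie at chr20:4515235-4515414 on the plus strand for RT1-Da, and on the minus strand at chr20:4560163-4560342 for RT1-Db1, chr20:4604119-4604298 for RT1-Bb and chr20:4712336-4712515 for RT1-DMa.
RT1-Da: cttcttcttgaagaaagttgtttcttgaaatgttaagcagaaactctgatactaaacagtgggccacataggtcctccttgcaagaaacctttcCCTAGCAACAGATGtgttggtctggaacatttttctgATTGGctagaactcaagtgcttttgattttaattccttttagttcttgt
RT1-Db1: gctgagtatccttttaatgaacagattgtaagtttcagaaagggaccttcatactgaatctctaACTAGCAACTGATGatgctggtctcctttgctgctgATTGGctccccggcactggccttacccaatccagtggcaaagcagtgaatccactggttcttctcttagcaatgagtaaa
RT1-Bb: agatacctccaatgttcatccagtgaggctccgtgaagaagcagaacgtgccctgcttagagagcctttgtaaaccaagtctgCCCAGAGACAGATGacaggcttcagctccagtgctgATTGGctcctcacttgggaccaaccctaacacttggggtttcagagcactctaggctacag
RT1-DMa: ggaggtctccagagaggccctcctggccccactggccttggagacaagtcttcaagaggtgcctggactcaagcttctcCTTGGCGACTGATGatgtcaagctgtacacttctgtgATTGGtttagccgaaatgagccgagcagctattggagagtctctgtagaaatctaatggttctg

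The X box matched without a mismatch in RT1-Da and RT1-Bb, with 1 in RT1-Db1 and with 2 in RT1-DMa. Between the boxes lay 23 bases in RT1-Da and RT1-DMa and 22 in RT1-Db1 and RT1-Bb. The promoters of RT1-Ba, Cd74 and Ctss held no such pair in this window, which says only that these letters were not there. A match is a description of the sequence.

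**Figure D1:**
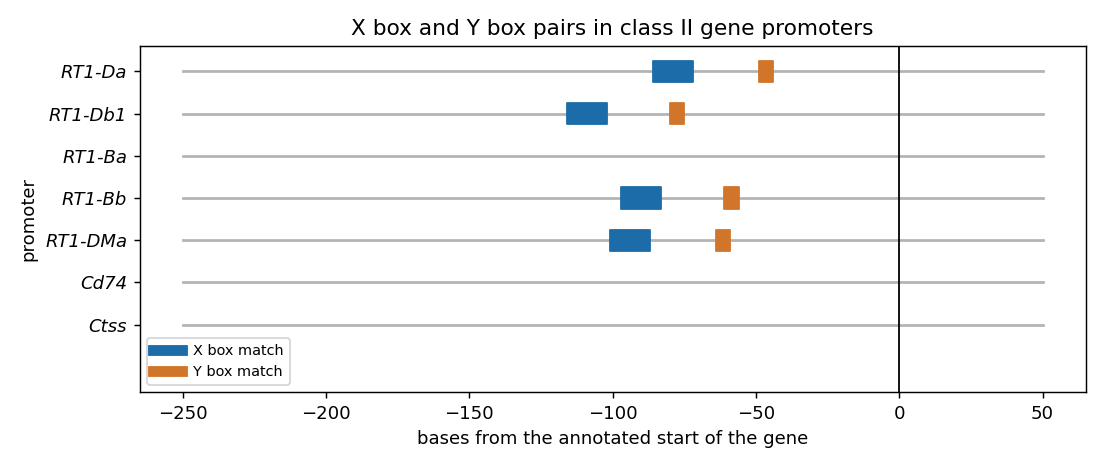
Position of the X box (blue) and Y box (orange) matches in 7 promoters, in bases from the annotated start of each gene (vertical line); grey lines span the window searched. The 4 promoters with a pair carry it upstream of the start, with 22 or 23 bases between the boxes.

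The control RNA stood apart in genes of the liver, which has to be known before the ratios are read. All 14 liver markers of the list were lower in G200 on all 3 arrays, with a median log2 ratio of -1.63, -3.21 and -4.37 on arrays 1, 2 and 3. The summed normalized level of the list was 189000, 182000 and 209000 in control and 54400, 18100 and 7650 in G200, and Tf (transferrin) was its brightest gene. Brightest means here and below the highest mean signal over both colours (in control alone Ttr and Alb were above Tf), and it is no measure of amount between probes. Some genes of the list, Cyp2e1 among them, are also known from kidney. The part of this difference in the class II ratios was not tested.

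The scale of the ratios also depended on how the dyes were brought together. With loess within each array, the median log2 ratio of all 14179 genes was -0.05, with -0.07, -0.04 and -0.05 on arrays 1, 2 and 3. With the median of each array centred instead it was 0.27 and with no normalization between the dyes 0.62, so class II ratios are also given relative to these medians. In limma's test with Benjamini-Hochberg adjustment, 5318 genes passed an adjusted p under 0.05. Of these 1629 were higher (11.5% of the genes tested) and 3689 lower (26%) in G200. The higher share of the calls was 30.6% with loess, 79.6% with median centring (4956 higher and 1268 lower) and 96.3% with no normalization (8010 higher and 304 lower). Without array 3 the number of genes called was 1575, and without array 1 it was 3538. The p-values measure only the spread between these samples and leave out the spread between control rats.

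RT1-Da encodes the alpha chain of the RT1-D molecule. Its net spot intensity, the signal above local background before dye normalization, was 215, 218 and 234 in control and 1141.5, 475 and 1085.5 in G200 on arrays 1, 2 and 3. After loess its log2 ratios of G200 over control were 0.80, 0.53 and 1.08. All 3 arrays lay above 0 and array 2 was lowest. Array 3 was highest with loess, and array 1 with median centring (1.72 against 1.70) or no normalization (2.23 against 2.05). The control intensities lay close together while those of G200 spread. The mean log2 ratio was 0.80 ± 0.27 (SD, n = 3), a 1.74-fold ratio. In this bulk RNA, fewer or more cells of a type and less or more RNA per cell cannot be told apart.

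RT1-Db1 encodes a beta chain that pairs with the RT1-D alpha chain. The probe used had net intensities of 244, 262.5 and 240 in control and 967, 426 and 788 in G200, and log2 ratios of 0.42, 0.16 and 0.63. Array 2 was again lowest and array 3 highest, as for RT1-Da with loess. The mean was 0.40 ± 0.23 (SD, n = 3). The other RT1-Db1 probe gave 0.71, -0.07 and 0.41, so it put array 1 highest and array 2 just below 0. The probes of this gene thus differed in the sign of array 2. RT1 genes are near-identical in parts, so a probe may also read relatives of the gene it is named for.

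RT1-Bb encodes the beta chain of the RT1-B molecule. Its used probe had net intensities of 202, 242 and 216.5 in control and 584, 369 and 620 in G200, and log2 ratios of 0.03, 0.09 and 0.45, with a mean of 0.19 ± 0.23 (SD, n = 3). Only array 3 lay clearly above 0, and the mean was smaller than its SD. The other RT1-Bb probe was well above background on array 1 alone, in both colours, with a net intensity of 30 in control and 731 in G200. On arrays 2 and 3 it read 16 and 19 in control and -2 and -2 in G200. Its log2 ratio on array 1 was 2.22, against 0.03 by the used probe, and on arrays 2 and 3 no ratio is given for it.

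RT1-Ba, the alpha chain of RT1-B, was not well above background on any array in either colour. Its net intensities were 20, 20 and 22 in control and 6.5, 2 and 8.5 in G200, so no ratio is given.

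RT1-DMa and RT1-DMb form the DM chaperone, and both probes were dim. RT1-DMa had net intensities of 31, 35.5 and 38 in control and 95, 38 and 49.5 in G200, and log2 ratios of 0.36, 0.12 and 0.01 (0.16 ± 0.18, SD, n = 3). RT1-DMb had 63, 64.5 and 57.5 in control and 209, 77.5 and 111.5 in G200, and log2 ratios of 0.29, 0.05 and 0.14 (0.16 ± 0.12, SD, n = 3). In both genes array 1 was highest. With loess it was array 3 in RT1-Da, RT1-Db1 and RT1-Bb, but with no normalization array 1 was highest in these as well. With offset 0 in place of 50 the means were 0.39 for RT1-DMa and 0.27 for RT1-DMb, and with the deposited Feature Extraction log ratio 0.55 and 0.43.

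Cd74 is the invariant chain. Its net intensities were 623.5, 659 and 693 in control and 2818, 1105 and 2491 in G200. The log2 ratios were 0.57, 0.16 and 0.74, with a mean of 0.49 ± 0.30 (SD, n = 3). Array 2 was low and array 3 high, the order seen in RT1-Da and RT1-Db1 with loess.

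Ctss encodes cathepsin S, the protease that trims the invariant chain. Its net intensities were 171, 193 and 166 in control and 895.5, 290 and 595 in G200. The log2 ratios were 0.77, 0.09 and 0.73, with a mean of 0.53 ± 0.38 (SD, n = 3). Arrays 1 and 3 were close together and array 2 stood near 0.

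Ciita is the transactivator of the class II promoters. Its probe was well above background in control on 2 arrays and in G200 on 1, with net intensities of 21, 25 and 22.5 in control and 27, 19 and 16.5 in G200. These lie near the limit of detection, and the gene was not tested.

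**Figure D2:**
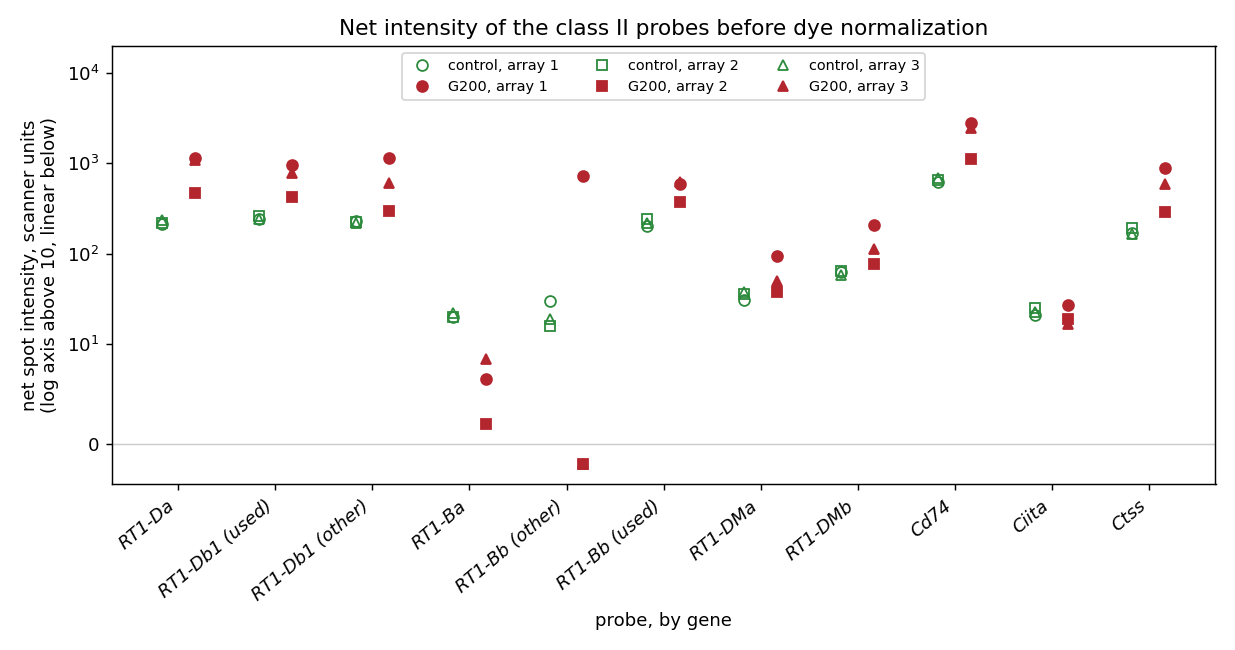
Net spot intensity of the 11 class II probes in control (open, green) and G200 (filled, red) on each array, on an axis that is logarithmic above 10 and linear below. The control points of Cd74 lie between 623.5 and 693, while its G200 points run from 1105 to 2818; the other RT1-Bb probe reads 731 in G200 on array 1 and -2 on arrays 2 and 3, where the points coincide. Brightness cannot be compared between probes.

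Among themselves, the 7 genes that passed the filter had a median log2 ratio of 0.42 on array 1, 0.12 on array 2 and 0.63 on array 3. With loess and offset 50, RT1-Da had the highest ratio of the 7 on every array; with the Feature Extraction log ratio, RT1-DMa (0.94) and Ctss (0.92) were above it (0.86) on array 1. With loess and offset 50, Ctss, Cd74 and RT1-Db1 followed in the means, but their order changed between arrays. RT1-Db1 was above Cd74 on 1 array and above Ctss on 1, and Cd74 was above Ctss on 2. RT1-Bb, RT1-DMa and RT1-DMb then came last with means within 0.16 to 0.19. This order depended on the scaling. By Feature Extraction the mean of Cd74 (0.69) was above that of Ctss (0.64), and RT1-DMa (0.55) was above RT1-Db1 (0.53). With median centring RT1-Bb had a mean of 0.78 and RT1-DMa of 0.27. All 7 lay above 0 on all 3 arrays, which 26.5% of all genes tested did, and 4 of them (RT1-Da, RT1-Db1, Cd74, Ctss) were among the 1629 called higher (11.5%). Nothing is read from either count, since the members were chosen on this contrast. With the Feature Extraction log ratio RT1-Bb was at -0.01 on array 1. Without array 3 the number of members called was 1, where 1.21% of all genes tested were called higher. Nothing is read from that count either.

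**Figure D3:**
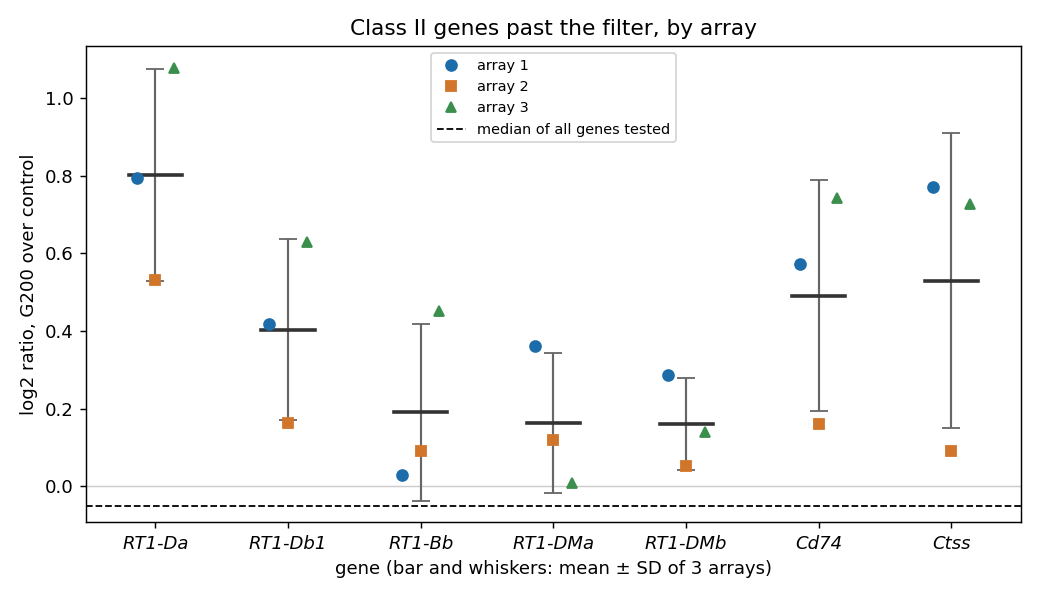
Log2 ratio of G200 over control for the 7 class II genes past the filter, with a point for each array and the mean ± SD of 3 arrays. RT1-Da runs from 0.53 to 1.08, and array 2 is lowest in RT1-Da, RT1-Db1, RT1-DMb, Cd74 and Ctss; the dashed line is the median of all genes tested, -0.05.

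The scaling changed the size of these ratios. The means of all 7 were above 0 under each scaling run, but nothing is read from that. The median of all genes was itself above 0 with median centring (0.27) and no normalization (0.62). The median over the 7 genes was 0.40 with loess, 0.55 with the Feature Extraction log ratio, 1.01 with median centring and 1.37 with no normalization. Relative to the median of all genes it was 0.45, 0.57, 0.75 and 0.75. Relative to that median RT1-Da stood at 0.85 with loess and 1.15 with median centring or no normalization. RT1-DMa stood at 0.21 with loess, at 0.57 with the Feature Extraction log ratio and at 0.0032 with median centring or no normalization.

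**Figure D4:**
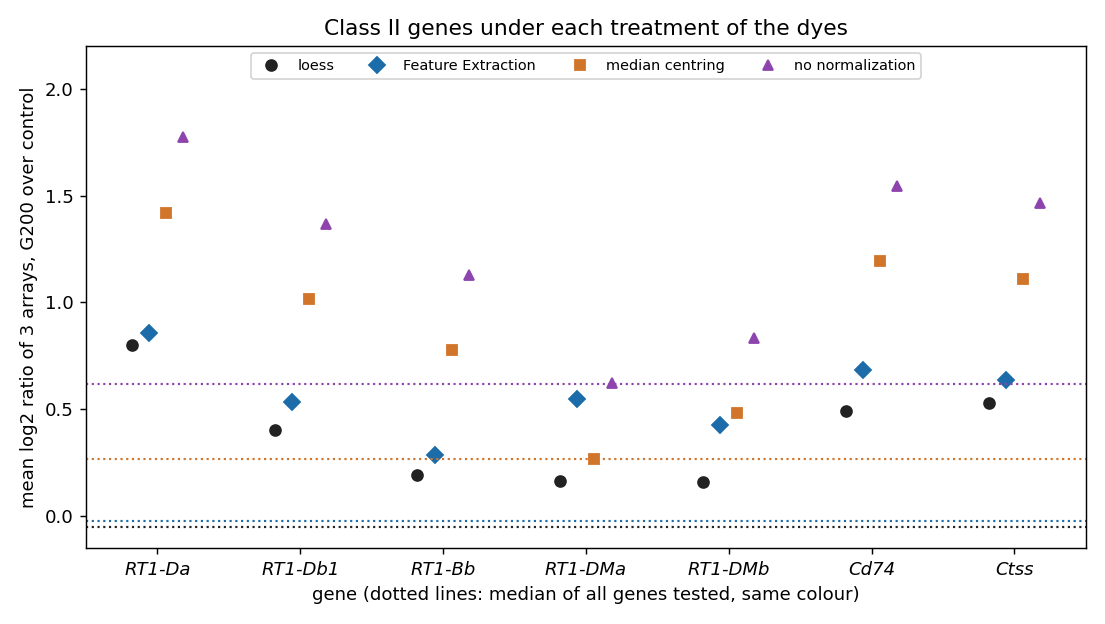
Mean log2 ratio of 3 arrays for the 7 class II genes under loess, the Feature Extraction log ratio, median centring and no normalization, with the median of all genes tested under each as a dotted line of the same colour. All points lie above their own line; RT1-DMa is 0.0032 above it with median centring.

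The 5 genes whose ratios on the 3 arrays lay nearest to the median of the 7 were Psma7, Slc23a3, Asah1, Dpp7 and Slc25a39, at distances of 0.0349 to 0.0984 (Euclidean, over 3 log2 ratios). Psma7, a subunit of the proteasome, had 0.44, 0.14 and 0.64. Asah1, the acid ceramidase of the lysosome, had 0.47, 0.10 and 0.55. Of all genes tested, 4.44% had a mean above the median of the 7. As the members were chosen on this contrast, nothing is read from this share.

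Other genes of the class II pathway were taken from a fixed list of 24, of which 14 were tested. In limma's test 5 were higher and 1 lower, and the median log2 ratio of the list was 0.10 against -0.05 over all genes. It was 0.10, 0.17 and 0.09 without array 1, 2 or 3, 0.70 with median centring and 1.05 with no normalization, and 2 genes were higher and 2 lower when array 1 was left out. Ctsh, a cathepsin of the lysosome, rose by 0.91 ± 0.45 (SD; adjusted p = 0.00843), with 1.29, 0.42 and 1.02 on arrays 1, 2 and 3. Lgmn, the asparagine endopeptidase, rose by 0.86 ± 0.31 (adjusted p = 0.00402), with 1.11, 0.52 and 0.95. Both were lowest on array 2, as were most class II genes. This was not particular to them, as array 2 also had the lowest median in other lists described here. Among these were class I (0.09, -0.07 and 0.07 on arrays 1, 2 and 3) and macrophage markers (0.16, -0.10 and 0.05). The medians of the B cell, T and NK, endothelial, other nephron and liver lists were not lowest there. Cst3, the cystatin C inhibitor of such proteases, rose by 0.36 ± 0.17 (adjusted p = 0.021), and Ctsf and Ctsk had means of 0.31 and 0.26. Cst7, another cystatin, fell to -0.56 ± 0.24 (adjusted p = 0.00911), and with no normalization it stood at 0.16. Without array 3 only Lgmn was called in this list (1 higher, 0 lower); Ctsh then had a mean of 0.85 (adjusted p = 0.0672). The counts were 10 higher and 0 lower with median centring and 11 and 0 with no normalization.

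Of 22 genes listed for class II transcription 13 were tested, with 2 higher, 3 lower and a median of 0.05, which was 0.02 without array 2 or array 3, 0.19 with median centring and 0.54 without dye normalization. The probe of Rfx5, a subunit of the factor that binds the X box, was well above background in control on all 3 arrays and in G200 on 0. It passed the filter through control alone, and its level in G200, not well above background, is only bounded. With loess it was at least 2.11-fold lower there (limma's adjusted p = 0.00084), with median centring at least 2.05-fold and with no normalization at least 1.6-fold. That p is not used as support, as the probe entered the test only through control, where it is high. With both colours required Rfx5 was not tested, and the list had 2 genes lower in place of 3. Such a bound is open to dye bias, since the dyes were not exchanged. Crem had a mean of -0.54 and Smarca4 of -0.41, and both were above 0 with no normalization, at 0.24 and 0.56. The counts were 4 higher and 1 lower with median centring and 7 and 1 with no normalization. Atf1 rose by 0.25 ± 0.05 (adjusted p = 0.0287), but with its probes averaged it was at 0.09 (adjusted p = 0.316), and with any 1 array left out, with offset 0 or by Feature Extraction it was not called. Without array 3 no gene of the list was called higher, and Rfx5 (tested through control alone) and Crem were called lower.

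The interferon-gamma response list had 17 of 26 genes tested, with 3 higher, 2 lower and a median of 0.16, which was 0.08 without array 1 and 0.07 without array 3. Cxcl10, a chemokine, rose by 0.68 ± 0.22 (adjusted p = 0.00433) and Isg15 by 0.60 ± 0.45 (adjusted p = 0.0304). Igtp, a GTPase induced by interferon-gamma, fell to -1.32 ± 0.29 (adjusted p = 0.00118), and Gbp5 to -0.26 ± 0.03 (adjusted p = 0.0229). With loess, genes of this list thus moved both ways. With median centring 8 were higher and 1 lower, and with no normalization 12 and 0. Igtp was at -0.64 with its probes averaged, at -0.48 with median centring and at -0.13 with no normalization, where it was not called (adjusted p = 0.596). Gbp5 was at 0.26 with no normalization, and without array 3 only Cxcl10 and Igtp were called. For class I antigen presentation 21 of 31 genes were tested, with 3 higher (Psmb8 0.33, Pdia3 0.29, Canx 0.26), 1 lower (Calr -0.37) and a median of -0.08. Calr, a chaperone, was above 0 with median centring, at 0.28. No class I gene of the list was called without array 1 or without array 3 (0 higher, 0 lower by limma). With median centring 12 were higher and 0 lower and the median was 0.52, and with no normalization 18 were higher, 0 lower, and the median was 0.87. No direction is therefore given for this list.

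Markers of the cells that carry class II were mixed. Of 16 dendritic cell markers 4 could be tested, so most of that list was not measured; Cd83 rose by 0.38 ± 0.13 (adjusted p = 0.0125), the list's median was 0.10 (0.05 without array 3), and Fscn1 was its brightest gene. Its summed normalized level was 580, 498 and 547 in control and 660, 521 and 624 in G200. Of 22 macrophage markers 16 were tested, with 1 higher, 2 lower and a median of 0.04. Lyz2 (lysozyme, the brightest) rose by 0.60 ± 0.26 (adjusted p = 0.00881), while Cx3cr1 fell to -1.27 ± 0.27 (adjusted p = 0.00112) and C1qb to -0.43 ± 0.24 (adjusted p = 0.0201). Its summed level was 22200, 18100 and 21200 in control and 24000, 15500 and 21600 in G200. C1qb was at 0.22 with median centring. Cx3cr1 was at -0.50 with median centring and at -0.15 with no normalization, where it was not called (adjusted p = 0.545). The macrophage counts were then 7 higher and 1 lower, and 11 and 0, and the list's median 0.46 and 0.81. Without array 1, 2 or 3 this median was -0.06, 0.12 and 0.0098. Without array 3, Cx3cr1 was called in these lists and Cd83, Lyz2 and C1qb were not.

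Of 13 B cell markers 5 were tested, with none higher, 2 lower and a median of -0.17. This median was -0.59 with offset 0, -0.70 by Feature Extraction (1 higher, 3 lower), -0.44 with both colours required (3 genes tested) and 0.06 with no normalization. Pax5, a transcription factor of B cells and the brightest of the list, fell to -0.88 ± 0.19 (adjusted p = 0.00155), and Fcrla had a mean of -0.44. With no normalization Pax5 was at -0.03 (adjusted p = 0.893) and Fcrla at -0.0041 (adjusted p = 0.986), so neither was called, and Pax5 was at -0.39 with median centring. Without array 3 only Pax5 was called, as Fcrla had an adjusted p = 0.0667. The summed level was 763, 625 and 732 in control and 544, 511 and 538 in G200. Of 15 T and NK cell markers 8 were tested and limma called 0 (1 at an unadjusted p under 0.05), with a median of -0.05. With offset 0 or the Feature Extraction log ratio 1 was lower, and 1 was higher with median centring and 2 without dye normalization. The part of these cells in the class II ratios was not tested.

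Cells of the kidney itself were well measured, with 11 of 12 proximal tubule markers and 9 of 10 markers of other nephron segments tested. The proximal tubule list had 4 higher (Gatm 0.54, Cubn 0.45, Aqp1 0.41, Lrp2 0.26), 1 lower and a median of 0.26. The gene called lower was its brightest, Miox, with a mean of -0.25, and it was at 0.64 with median centring. The list's median was 0.15 without array 1 and 0.06 with probes averaged, and without array 3 limma called 0 of its genes. With probes averaged Lrp2 was at 0.06 and not called (limma's adjusted p = 0.614), and Gatm was at 0.27. Lrp2 was also not called with offset 0, by Feature Extraction or without array 2. With median centring 8 were higher and 0 lower, and with no normalization 10 and 0. The other nephron list had 2 higher, none lower and a median of 0.31, with Umod (uromodulin) up by 0.87 ± 0.10 (adjusted p = 0.00102). Its median was 0.65, 0.05 and -0.01 on arrays 1, 2 and 3, and 0.14 without array 1. Without array 1 or without array 3 only 1 was higher, while 7 were with median centring and all 9 with no normalization. Of 14 endothelial markers 9 were tested, with none higher, 1 lower (Pecam1, -0.56) and a median of -0.05; Plvap was its brightest gene. Pecam1 was at 0.14 with median centring, where 3 endothelial genes were higher and 0 lower, against 4 and 0 with no normalization.

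**Figure D5:**
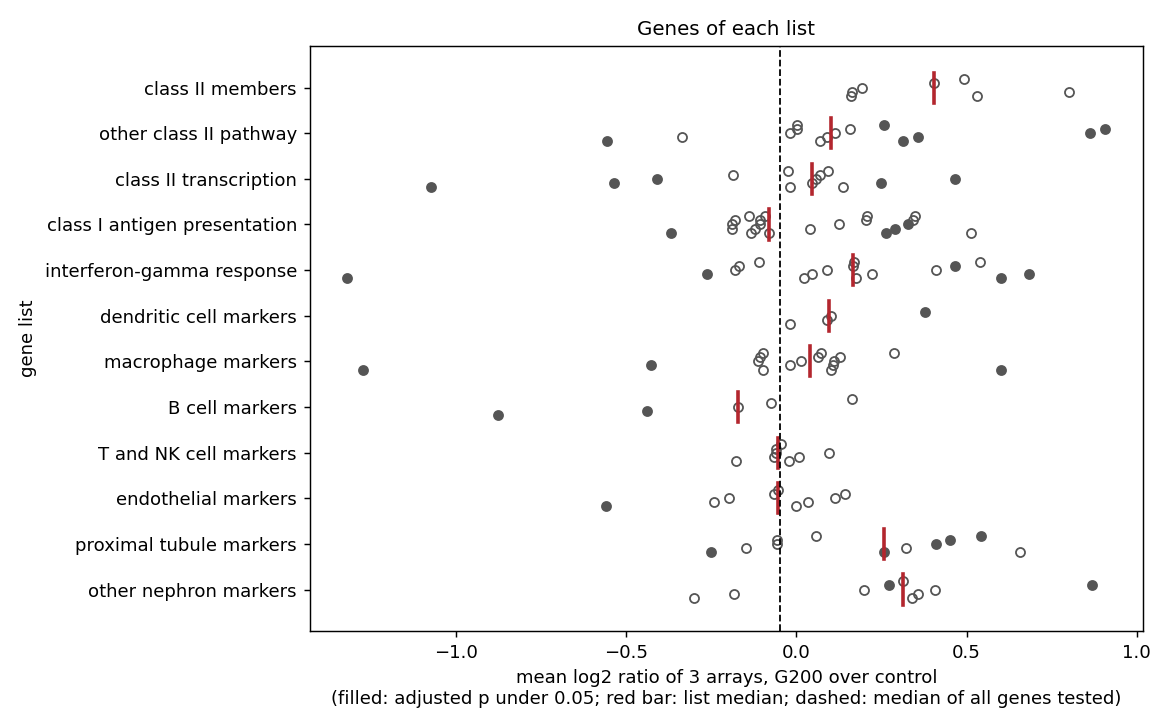
Mean log2 ratio of 3 arrays for each gene tested of 12 lists, filled where limma's adjusted p was under 0.05 (class II members are all open, as they carry no test); red bars are list medians and the dashed line is the median of all genes, -0.05. The class II members have a median of 0.40, and the liver list, with a median of -3.03, is left out for scale.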

How the data were processed

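The authors labelled control RNA with Cy3 and G200 RNA with Cy5 and deposited the scanner output of Agilent Feature Extraction (version 11.5.1.1 per the file headers, 9.3.2.1 per the labels). The deposited intensity values are medians over the pixels of a spot, and over those around it, for Cy3 and Cy5 and without correction. A log10 ratio of Cy5 to Cy3 that the authors deposited, with background and dye effects removed by Feature Extraction, served as an alternative and was turned to log2.

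The members and the gene lists were chosen with earlier results of these data known. Background was corrected on these intensities with limma 3.58.1 in R 4.3.3 (normexp, offset 50) and the dyes by loess within each array, with control spots at weight 0. The plan assumed the spot signal; the files hold its median, which was used. Outlier spots (635, 736 and 945 on arrays 1, 2 and 3) were left out and spots of a probe averaged. Of 30367 probes, 18355 (60.4%) matched a symbol in the RefSeq table of GRCr8 by accession. Probes that stood well above background in the same colour throughout (or in both) were kept (15649), and the brightest stood for its gene. The share of spots with a signal well above background was 59.8%, 62.7% and 62.3% for Cy3 and 63.0%, 56.6% and 61.0% for Cy5, and the 3 arrays limit the precision.

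Mean log2 ratios were tested against 0 by lmFit and eBayes (two-sided), and p-values were adjusted by Benjamini-Hochberg over every gene tested. Control and G200 are paired by hybridization to the same array, which is the block. The methods' t-test was run as an alternative on the log ratios and on the channels. The channel form was run on the loess values. A form with the channels also scaled between arrays was added after the result of that form had been seen, and both are given. Members and, in each list, up to 4 called genes with the largest mean ratio, the brightest gene of each marker list and the 5 nearest profiles were named; Ctsf, Ctsk, Atf1 and Gbp5 were named beyond that rule and after seeing their values. For 2 genes of the lists no single value is reported, though list counts hold them. Simulated data were used to test these steps; a limit set at first on the number of recovered genes was not met and was replaced by limits on the estimates and on false calls.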

Additional observations from a re-analysis of the deposited data

How the results depend on the processing

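The number of genes changed was 5318. It was between 4351 and 6224 with offset 0, the Feature Extraction log ratio, median centring, no filter, both colours required, outlier spots kept, probes averaged or the robust variance model. With no normalization it was 8314. Leaving out 1 array gave 1575 to 4977 genes and a median of the members of 0.29 to 0.52, lowest without array 3. The median of the members was 0.40, with 1.01 under median centring and 1.37 without dye normalization. With no filter RT1-Ba and Ciita enter it, whose signals are at or near background, so that median is not read. Class II genes called were 7 with no normalization, where 56.5% of all genes were called higher. Leaving out 1 array they were 1 to 4, against 6.12%, 11.4% and 1.21% of all genes without arrays 1, 2 and 3. Nothing is read from these counts, since the members were chosen on this contrast. The cause was not tested.

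Array pairs were the block; with separate channels and no block 4098 genes were called, with 3 class II genes against 7.14% of all genes called higher. Run on the log ratios, the methods' t-test left 2 genes after adjustment (4472 at an unadjusted p under 0.05), and on the channels 0 (2721 unadjusted), against 5318 by limma (6959 unadjusted). Run again on channels scaled between arrays, a form chosen after seeing the 0, it called 335 (4183 unadjusted). Class II genes called were 0 in each form, where 0%, 0% and 0.374% of all genes were called higher, so this count says nothing of the members. Without array 3, Ctsh, Cst7, Cst3, Isg15, Cd83, Lyz2 and C1qb were no longer called, while Lgmn, Crem, Cxcl10, Igtp, Cx3cr1, Pax5, Pecam1 and Umod were called with any 1 array left out. Atf1, Calr, Canx, Ctsf, Gbp5 and Miox were not called with any 1 array left out. A block for slide or scan was not run, as there was 1 of each.

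Signs turned as follows. With median centring the median of all genes was 0.27, of T and NK markers 0.087 and of endothelial markers 0.14, and Smarca4 was at 0.21, Calr 0.28, C1qb 0.22, Pecam1 0.14, Plvap 0.57 and Miox 0.64. With no normalization the medians were 0.62 for all genes, 0.061 for B cell, 0.44 for T and NK and 0.49 for endothelial markers, with Cst7 at 0.16, Crem 0.24, Gbp5 0.26, Smarca4 0.56, Calr 0.63, C1qb 0.58, Pecam1 0.49, Plvap 0.93 and Miox 1.00. The class I median, -0.08, was smaller than its spread between arrays and was 0.06 with the Feature Extraction log ratio, 0.52 with median centring, 0.87 with no normalization and 0.04 with no filter. The macrophage median, 0.04, was -0.06 without array 1. Other list medians rose, under centring and then without dye normalization, to 0.55 and 0.90 for interferon-gamma, 0.45 and 0.80 for dendritic, 0.82 and 1.18 for proximal tubule, 0.90 and 1.25 for other nephron and -2.34 and -1.98 for liver; the B cell median was -0.29 with centring. The robust variance model called none of the liver genes. The endothelial median was 0.066 with the Feature Extraction log ratio and the B cell median 0.0071 with no filter. The 7 class II means never turned, which says nothing, as by loess all were above 0 on each array. The dimmer probe of RT1-Bb, tried after seeing the data, was at background on 2 arrays, so its mean is not given.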

Other observations

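Probes of other RT1 genes, class I genes among them, were compared over the arrays, as a description chosen after the values had been seen. With the 9 class II genes left out, 25 RT1 probes were well above background in at least 1 colour on every array. The median range of their log2 ratios over the 3 arrays was 0.474, against 0.226 over 15971 probes of the array measured in the same way. A range over 1 was found for 1 of the 25 (4%) and for 295 of the 15971 (1.85%). That probe was of RT1-CE16 (1.26, -0.03 and 0.31).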
